A study of Mus musculus with 12 samples.

Results

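Of the 12 RNA-seq libraries of the series, the 6 of mouse naive embryonic stem cells (ESCs) were compared, 3 of MTCH2-/- cells and 3 of MTCH2 F/F cells. The members were chosen by their labels: clones FF1, FF2 and FF3 grown in 2i/LIF, each once without and once with Cre. MTCH2 F/F cells carry conditional (floxed) alleles of Mtch2 on a C57BL/6 background and came from E3.5 blastocysts. MTCH2-/- cells are the same clones after treatment with a cell-permeable Cre recombinase, so the controls share the floxed alleles but were not exposed to Cre, and the effects of the deletion and of the Cre exposure cannot be told apart. Both groups were grown in medium with 2 kinase inhibitors and leukemia inhibitory factor (2i/LIF), after derivation and Cre treatment on feeder fibroblasts. The other 6 libraries are of the same clones primed to epiblast-like cells (EpiLCs), and enter here as part of the model that estimates the spread and for 1 comparison at the end.

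MTCH2 is a protein of the outer mitochondrial membrane, known for its part in mitochondrial apoptosis, in mitochondrial fusion and in the insertion of membrane proteins. Naive ESCs correspond to the epiblast before implantation, and 2i/LIF holds them in that state by blocking MEK and GSK3 while LIF activates STAT3. Leaving that state is known to involve TFE3, a transcription factor of lysosomal and metabolic genes that the FLCN and FNIP proteins keep out of the nucleus. The comparison asks how the transcriptome of naive cells differs when MTCH2 is missing, before any priming signal is given.

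The 6 libraries held between 18439974 and 24068523 reads counted in genes. Values are given as CPM, the reads of a gene relative to its library total after TMM scaling, and a log2 fold change is that of MTCH2-/- over MTCH2 F/F ESCs with its standard error. The targeted gene, Mtch2 (chr2:90847155-90866810 on GRCm38, plus strand), was measured at 175, 183 and 172 CPM in MTCH2 F/F clones 1, 2 and 3 and at 2.19, 1.58 and 1.82 CPM in the MTCH2-/- cells of the same clones. The deletion thus showed in all 3 clones, with 1.05% of the control mean CPM left and a log2 fold change of -6.55 ± 0.10 (edgeR quasi-likelihood test, adjusted p = 3.89e-16). Its paralog Mtch1 stood at 110.2, 118 and 116 CPM and 119, 124 and 119 CPM, and did not pass the test (log2 fold change 0.08, adjusted p = 0.256), although its 3 MTCH2-/- values lay above the controls. The summed level of 8 ESC markers was 6799 to 7315 CPM in the controls and 4988 to 5900 CPM without MTCH2. These markers were thus expressed in both groups, at a lower sum without MTCH2, and 2 of the 8 were called lower. In bulk RNA, fewer cells of a type and less RNA per cell cannot be told apart. Mitochondrially encoded genes took 1.98% to 2.11% of the reads in MTCH2 F/F libraries and 0.539% to 0.601% in MTCH2-/- libraries. Genes of the Y chromosome differed between clones rather than genotypes: Eif2s3y was at 31.6, 65.2 and 2.03 CPM in the controls and at 38.6, 62.0 and 1.87 CPM in the MTCH2-/- cells, low in both libraries of clone 3.

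Of 17369 genes tested, 4049 were higher in MTCH2-/- ESCs and 3550 lower at an adjusted p under 0.05, which is 23.3% and 20.4% of the genes. When a 2-fold change was required as well, 1574 genes (9.06%) were higher and 334 (1.92%) lower. At 2-fold, increases outnumbered decreases in every class of abundance: under 1 CPM, 548 of 2692 genes were higher and 117 lower. From 1 to 10 CPM 698 of 4718 were higher and 150 lower, and from 10 to 100 CPM 289 of 7262 and 55. The filter for low counts looked at all 12 libraries. A gene near 0 in the controls could pass it through libraries where it was higher, and can hardly be called lower. Above 100 CPM only 39 of 2697 genes were 2-fold higher and 12 lower, and without a fold minimum 953 of these abundant genes were lower and 486 higher. The 3 libraries of one group lay all above or all below those of the other for 54.7% of the genes tested, and for 1855 of the 1908 genes with a 2-fold call. The 3 clone differences (MTCH2-/- minus MTCH2 F/F, log2 CPM with 0.5 added) had the called direction in all clones for 1890 of these 1908 genes. Over all 17369 genes tested, 11953 had 3 clone differences of 1 sign, and the calls were made from the same values. Clone 1 showed the widest differences: their SD over genes was 0.643, against 0.511 in clone 2 and 0.562 in clone 3, and 469 genes of at least 10 CPM were 2-fold higher in clone 1, 250 in clone 2 and 282 in clone 3.

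Genes called 2-fold from only 2 clones were then read in the clone that had been left out. Of 1247 genes called higher without clone 1, 99.0% were higher in clone 1, and 77.5% at least 2-fold, against 8.51% of all genes tested. For the calls made without clone 2 and clone 3 the share higher was 97.5% of 1538 and 97.6% of 1434 genes. The share at least 2-fold higher was 49.0% and 57.6%, against 4.88% and 5.51% of all genes tested. Of the genes called lower without clone 1, 2 and 3, 94.3%, 98.3% and 97.8% were lower in the clone left out. At least 2-fold lower were 36.0%, 30.6% and 50.6%, against 1.39%, 0.856% and 1.71% of all genes tested. Over all genes tested the shares of each sign were between 49.2% and 50.7%.

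Among genes of at least 10 CPM with a 2-fold call, the largest increase was that of Gpnmb (chr6:49036546-49070929, plus strand), a lysosomal and melanosomal membrane glycoprotein known as a target of the MITF and TFE factors. Gpnmb was at 17.1, 14.2 and 18.02 CPM in the MTCH2 F/F clones and at 1156, 646 and 740.1 CPM in the MTCH2-/- clones, a 51.5-fold increase on the fitted scale (log2 5.69 ± 0.28, adjusted p = 3.21e-07). The groups were far apart, and clone 1 reached the highest level. Bhlhe41, a transcriptional repressor of the circadian clock, rose from 2.13, 1.66 and 1.98 CPM to 67.3, 44.9 and 55.8 CPM (log2 4.86 ± 0.27, adjusted p = 1.04e-07). Dusp8, a phosphatase of the stress-activated MAP kinases, was at 1.44, 1.12 and 1.63 CPM in the controls and at 26.5, 20.5 and 24.9 CPM without MTCH2, or 17.1 times as high (log2 4.10 ± 0.20, adjusted p = 1.07e-09). For both genes every MTCH2-/- library was more than 10-fold above every control library.

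The next increases were of genes with varied roles. Ppl, the desmosomal linker periplakin, was at 2.73, 1.90 and 1.88 CPM and 31.2, 19.99 and 26.3 CPM (log2 3.57 ± 0.21). Pvrl4, the adhesion molecule nectin-4, was at 3.22, 2.44 and 1.98 CPM and 34.7, 23.1 and 30.8 CPM (log2 3.54 ± 0.19), and Cd109, a membrane-anchored co-receptor of TGF-beta, at 5.16, 4.53 and 3.66 CPM and 36.4, 30.5 and 35.01 CPM (log2 2.93 ± 0.13). In each of the 3 genes clone 1 was highest after deletion. The groups did not overlap, as the rule for choosing these genes required. Col9a3, a chain of collagen IX, rose to 36.7, 13.9 and 15.5 CPM from 2.88, 2.39 and 2.03 CPM. The chemokine Cxcl16 rose to 26.8, 14.4 and 17.1 CPM from 2.53, 2.49 and 2.67 CPM, and the kinesin motor Kif1a to 28.3, 12.2 and 17.2 CPM from 2.63, 2.44 and 1.83 CPM. Clone 1 stood above the other MTCH2-/- clones in these 3 genes as well, and their adjusted p were 0.000473, 2.62e-07 and 0.000451.

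Lipid metabolism was represented by Soat2 and Acot2. Soat2, which esterifies cholesterol, was at 3.87, 2.68 and 3.56 CPM in controls and at 29.96, 26.8 and 24.4 CPM in MTCH2-/- cells (log2 3.01 ± 0.14, adjusted p = 4.94e-10). Acot2, a mitochondrial acyl-CoA thioesterase, was at 3.02, 1.999 and 2.13 CPM and 19.8, 18.04 and 18.4 CPM (log2 2.97 ± 0.13, adjusted p = 3.58e-10). The MTCH2-/- libraries of both genes were close to each other. The rest of the 14 largest increases were Tap1, the peptide transporter of antigen presentation (4.81, 3.36 and 5.39 against 47.9, 32.6 and 39.9 CPM), the chromatin protein Trim66 (2.78, 1.75 and 2.52 against 23.1, 22.7 and 23.8 CPM) and the AP-1 subunit Fos (6.69, 5.70 and 6.68 against 54.2, 33.8 and 51.3 CPM). Each passed the test at an adjusted p of 6.69e-08 or less.

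**Figure D1:**
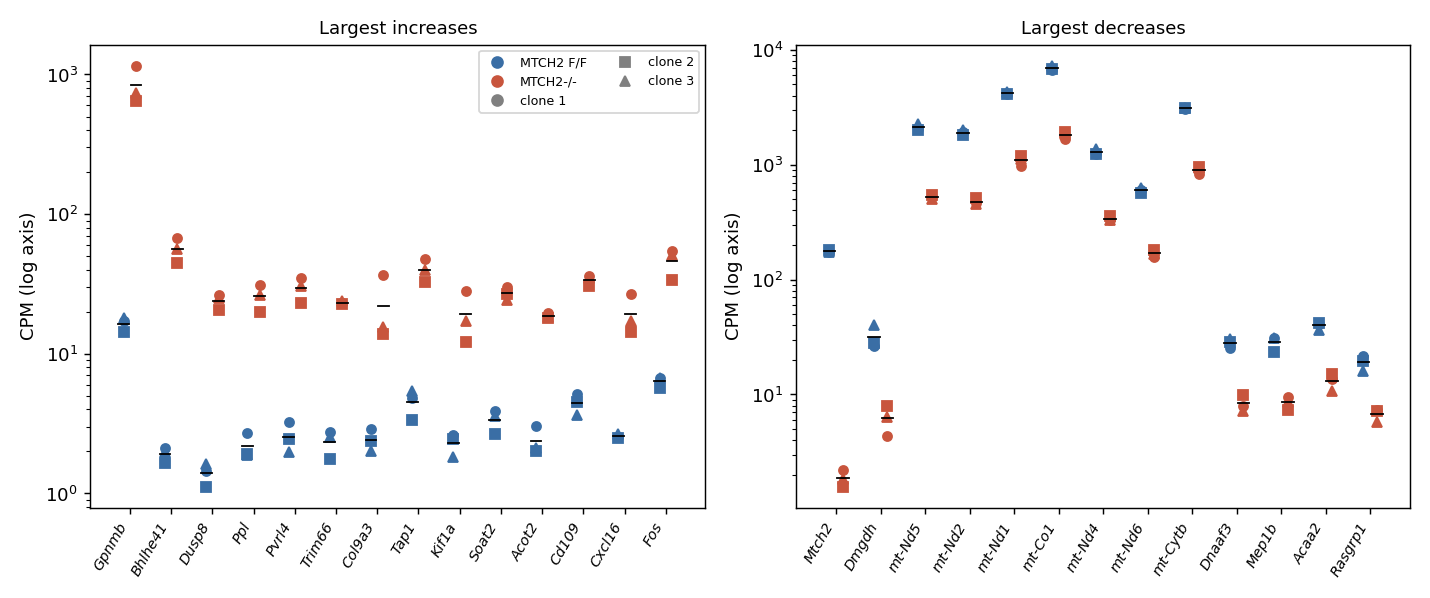
CPM (log axis) in each of the 6 ESC libraries for the 14 largest increases (left) and 13 of the 14 largest decreases (right) among genes of at least 10 CPM with a 2-fold call; symbols mark the clone, colours the genotype and black lines the group means (n = 3). For each gene the 3 MTCH2-/- libraries lie apart from the 3 controls, as the rule for choosing them required, and clone 1 is highest for most of the increases.

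Ranked by the difference in CPM instead of by fold, the increases were led by abundant transcripts. Neat1, the long noncoding RNA that builds paraspeckles, rose from 175, 184 and 227 CPM to 1425, 971 and 1289.6 CPM (log2 2.66 ± 0.21, adjusted p = 4.44e-06). Slc20a1, a phosphate transporter, rose from 286, 294 and 300.1 CPM to 923, 767 and 895 CPM (log2 1.55 ± 0.079). Ahnak, a giant scaffold protein, was at 453, 436 and 421 CPM and 1126, 797 and 873 CPM (log2 1.10 ± 0.14). These 3 transcripts were higher in every MTCH2-/- library than in any control. Spp1, the secreted phosphoprotein osteopontin, was at 924, 990.5 and 1054 CPM and 1425, 1689 and 1519 CPM, and Aqp3, a water and glycerol channel, at 308, 332 and 356 CPM and 1041, 649 and 531 CPM. Both passed the test (0.00443 and 0.00671), but not in the fit without clone 2, where the adjusted p were 0.0613 for Spp1 and 0.0808 for Aqp3.

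Among the 14 largest decreases, 7 were the mRNAs encoded by the mitochondrial genome, which code for core subunits of the respiratory chain. mt-Nd5, a complex I subunit, was at 2060.4, 2020.2 and 2257 CPM in the controls and at 522, 544 and 507 CPM in the MTCH2-/- clones, so that 24.8% of its level remained (log2 -2.01 ± 0.061, adjusted p = 3.55e-12). mt-Nd1, mt-Nd2 and mt-Nd4 of the same complex fell to 26.3%, 25.1% and 26.4%. mt-Cytb of complex III, at 3041, 3111 and 3109 CPM against 827, 948 and 931 CPM, kept 29.2%, and mt-Nd6, which lies on the other strand, 28.2%. The 7 log2 fold changes thus spanned only -2.01 to -1.78, and the median of the list was -1.98, -1.79 and -1.97 in clones 1, 2 and 3. The other 6 mitochondrial mRNAs could not be tested, since none had more than 8 reads in any ESC library, and the reason for so few reads was not tested. The mitochondrial rRNAs, which poly-A libraries catch in part, fell less: mt-Rnr1 was at 144, 142 and 142 CPM and 68.9, 77.9 and 71.99 CPM (51.2% remaining) and mt-Rnr2 at 695, 629 and 609 CPM and 231, 242 and 251 CPM (37.5% remaining).

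The other large decreases were of nuclear genes. Dmgdh, a mitochondrial enzyme of choline breakdown, was at 26.5, 28.3 and 40.5 CPM in the controls and at 4.37, 7.90 and 6.37 CPM without MTCH2 (log2 -2.36 ± 0.25, adjusted p = 7.94e-06). Acaa2, the mitochondrial thiolase that ends each round of fatty acid oxidation, was at 41.1, 42.2 and 36.6 CPM and 13.6, 15.2 and 10.7 CPM (log2 -1.60 ± 0.14, adjusted p = 6.56e-07). Both mitochondrial enzymes were lower in every clone, as the rule for choosing them required. Dnaaf3, an assembly factor of ciliary dynein (29.6% remaining), the protease Mep1b (29.9%) and Rasgrp1, an activator of Ras (35.4%), were also among the largest decreases. By difference in CPM, the decreases were led by the mitochondrial mRNAs together with Hsp90ab1, a cytosolic chaperone at 6105, 6229 and 6106 CPM and 4918, 5436 and 5174 CPM, and Pkm, the pyruvate kinase of glycolysis at 1487, 1523 and 1399 CPM and 827, 905 and 852 CPM. The Hsp90ab1 difference was small (log2 -0.25 ± 0.065) and was not past the threshold without clone 3 (adjusted p = 0.0805).

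Nuclear genes of the respiratory chain were lower by a smaller amount. Of 37 complex I subunits, 24 were lower and 1 was higher, with a median log2 fold change of -0.24 against 0.01 over all genes tested. The counts of this and the later lists are to be read beside 20.4% lower and 23.3% higher over all genes tested. Of 43 subunits of complexes II to V, 30 were lower and 1 higher, with a median of -0.28. Uqcrh, the hinge subunit of complex III, was at 100.3, 101 and 94.3 CPM and 46.6, 45.7 and 47.5 CPM (log2 -1.08 ± 0.072), and Cox6b1 of complex IV at 190.2, 195 and 189 CPM and 98.98, 113 and 101 CPM (log2 -0.87 ± 0.078). Cox7a1, a complex IV subunit best known from muscle, kept 36.9% of its level. The single increase, Cox6a2, which also belongs to muscle, was almost unread in controls, with 2 reads in 3 libraries against 267 in the MTCH2-/- libraries, a ratio of 130 (exact 95% interval 35.8 to 1083, counting error only). Mitochondrial ribosomal proteins were lower for 36 of 76 and higher for 1, with a median of -0.17, as shown by Mrpl17 (117, 121 and 115 against 69.02, 82.9 and 79.1 CPM).

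These subunits have short mRNAs, and short transcripts were lower as a class. Genes whose longest annotated transcript is under 1000 nt had a median log2 fold change of -0.19 (31.1% lower, 6.57% higher), and those over 6000 nt one of 0.06 (20.2% lower, 32.9% higher). The trend ran the same way in all 3 clones and was steepest in clone 1. When each gene was set against the median of genes of like length and GC content, a step added after the trend was seen, the medians were -0.13 for complex I, -0.21 for complexes II to V and -0.11 for mitochondrial ribosomal proteins. Cytosolic ribosomal proteins, of which 30 of 87 were lower and 2 higher, went from a median of -0.20 to -0.06, and proteasome subunits (20 of 37 lower, 1 higher) from -0.24 to -0.12. Ribosomal protein genes also have many processed pseudogenes that can take or lose reads, so single members are uncertain. The mitochondrial mRNAs stayed at -1.81 on this scale. The part of transcript length in these results beyond that adjustment was not tested.

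**Figure D2:**
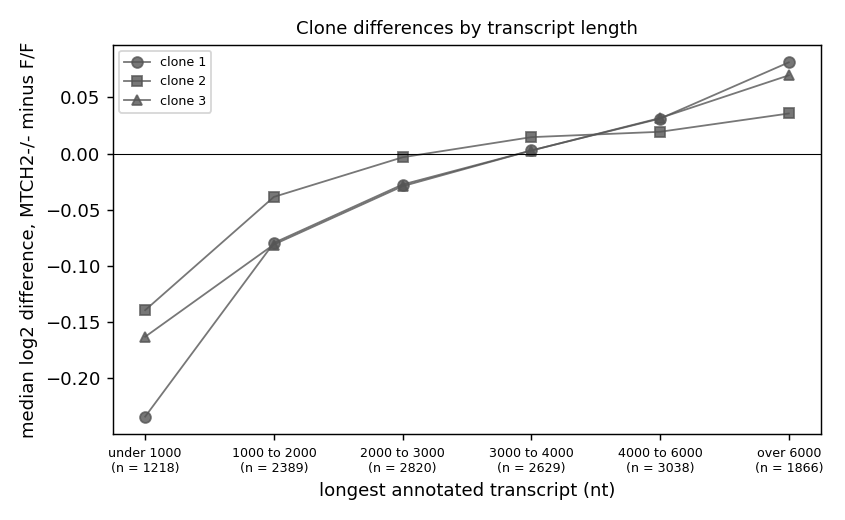
Median log2 difference between MTCH2-/- and MTCH2 F/F ESCs in each clone (y axis) for genes of at least 1 CPM grouped by the length of their longest annotated transcript (x axis, nt; number of genes below each class). Medians ran from -0.23, -0.14 and -0.16 in the shortest class to 0.08, 0.04 and 0.07 in the longest for clones 1, 2 and 3.

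Carbon metabolism outside the respiratory chain moved in both directions. Of 24 glycolysis genes 13 were lower and 4 higher, with a median of -0.38 (-0.34 after the adjustment for length and GC content). Ldha, which turns pyruvate into lactate, was at 281, 238 and 233 CPM in the controls and at 88.6, 117 and 94.2 CPM in the MTCH2-/- clones (log2 -1.33 ± 0.14, adjusted p = 1.51e-05). The lactate exporter Slc16a3 kept 40.1% of its level, and Tpi1, Pfkl, Pgk1 and Aldoa were lower too. Against this, Pfkfb2, which makes the allosteric activator of phosphofructokinase, rose from 22.1, 23.9 and 24.6 CPM to 72.95, 48.9 and 52.99 CPM, and the neuronal enolase Eno2 from 10.3, 7.51 and 10.6 CPM to 29.6, 22.5 and 20.3 CPM. For pyruvate entry, the TCA cycle and glutamine use, 17 of 40 genes were lower and 4 higher (median -0.17). Mdh2, the mitochondrial malate dehydrogenase, was at 359.6, 367 and 345 CPM and 229, 266 and 244 CPM, whereas Pcx, which makes oxaloacetate from pyruvate, rose from 21.7, 16.3 and 20.7 CPM to 46.6, 33.9 and 35.9 CPM. Ppargc1a, the coactivator that drives mitochondrial biogenesis, had 1 read in the 3 control libraries and 157 in the MTCH2-/- libraries, a ratio of 153 with an exact 95% interval of 27.1 to 6097 (counting error only). Its level without MTCH2, 3.93, 1.30 and 1.71 CPM, remained low.

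Genes that shape or move mitochondria showed no common direction. Of 26 genes of mitochondrial dynamics 8 were lower and 5 higher (30.8% and 19.2%, against 20.4% and 23.3% of all genes tested). Mfn1, an outer membrane fusion GTPase, was at 244, 234 and 234 CPM and 162, 169 and 147 CPM (log2 -0.58 ± 0.07), while March5, a ubiquitin ligase of that membrane, was at 73.5, 71.3 and 69.1 CPM and 111, 112 and 119.5 CPM (log2 0.68 ± 0.058). Of 44 carriers of the SLC25 family, to which MTCH2 is related, 13 were lower and 12 higher (29.5% and 27.3%). Among the increases, Slc25a44, a carrier of branched-chain amino acids, rose from 41.3, 47.7 and 47.8 CPM to 141, 94.00 and 100.4 CPM, and the calcium-dependent Slc25a24 from 2.53, 2.97 and 2.87 CPM to 11.9, 7.30 and 10.5 CPM. For fatty acid oxidation 7 of 25 genes were lower and 4 higher (28% and 16%). For cholesterol and fatty acid synthesis 9 of 32 were lower (28.1%) and none was higher at this threshold. Elovl6, a fatty acid elongase, was at 505, 405 and 414 CPM and 291, 254 and 256 CPM (log2 -0.72 ± 0.088).

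Lysosomal genes were higher as a group. Of 48 genes for lysosomal enzymes and membrane proteins, 29 were higher and 2 lower in MTCH2-/- ESCs, with a median of 0.45, and their summed level was 5807 to 6231 CPM in the controls and 8984 to 10400 CPM without MTCH2. The aspartic protease Ctsd was at 460.0, 489 and 513 CPM in the MTCH2 F/F clones and at 1119.7, 941 and 1059 CPM in the MTCH2-/- clones (log2 1.09 ± 0.094, adjusted p = 4.79e-07). Lamp1, the major glycoprotein of the lysosomal membrane, was at 508, 569 and 511 CPM and 1109.9, 1023 and 949 CPM (log2 0.96 ± 0.077, adjusted p = 2.13e-07). Both were higher in each MTCH2-/- library than in any control. Cln3, a lysosomal membrane protein, rose from 51.9, 63.4 and 71.5 CPM to 172, 129 and 145 CPM, the glycogen-degrading Gaa from 194, 198 and 203 CPM to 538, 394 and 408 CPM, and Laptm4b from 24.00, 26.2 and 29.2 CPM to 75.4, 67.3 and 70.97 CPM. The 2 members that fell, Gm2a and Glb1, act in the breakdown of gangliosides, at log2 fold changes of -0.34 and -0.29. Of 17 subunits of the V-ATPase, the proton pump that acidifies lysosomes, 14 were higher and none lower at the threshold, with a median of 0.44 (0.54, 0.33 and 0.38 in clones 1, 2 and 3). Atp6v0b of the membrane sector was at 85.5, 101 and 96.5 CPM and 221, 193 and 189.6 CPM (log2 1.09 ± 0.081), and Atp6v1a, the catalytic subunit, at 406, 428 and 453 CPM and 639, 589 and 637 CPM (log2 0.54 ± 0.073).

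The regulators that tie lysosomes to TFE3 were unevenly affected. Tfe3 itself was slightly lower (log2 -0.24 ± 0.088, adjusted p = 0.0399) and Tfeb did not pass the test (log2 0.00). Flcn, which keeps TFE3 in the cytoplasm, was at 87.8, 94.9 and 97.3 CPM and 279, 207 and 207 CPM (log2 1.31 ± 0.15, adjusted p = 3.02e-05). Its partners rose as well, Fnip1 from 82.9, 80.6 and 89.2 CPM to 219.7, 159 and 188 CPM and Fnip2 from 107, 117 and 117 CPM to 406, 239 and 254 CPM. Clone 1 had the highest level of all 3 genes, and every MTCH2-/- library exceeded every control. Of the Rag GTPases that recruit FLCN to lysosomes, Rragb, Rragc and Rragd were higher (log2 0.74, 0.98 and 0.95) and Rraga was lower (-0.22). In all, 11 of 21 genes of this list were higher and 3 lower. Autophagy genes were close to the background, with 9 of 37 higher and 6 lower. Among them Sqstm1, the cargo receptor p62, rose from 243, 261 and 288 CPM to 575, 529 and 582 CPM and Atg9b from 15.8, 15.7 and 14.5 CPM to 109, 64.2 and 87.8 CPM.

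Promoters of lysosomal genes are shown because TFE3, TFEB and MITF are known to bind E-boxes there. RefSeq promoters (GRCm38.p6, 250 bases before to 50 after the annotated start) were matched to 11949 of the 17369 genes tested. The extended E-box TCACGTGA, its own reverse complement, was found in 6 of 38 matched promoters of the lysosomal list (15.8%) and in 3 of 12 V-ATPase promoters (25.0%), against 1.98% of the promoters of all genes tested. The core E-box CACGTG, also palindromic and contained in the longer motif, was found in 36.8% and 33.3% of them, against 11.5% of all. Among all 1100 matched genes that were 2-fold higher, 17 promoters held TCACGTGA (1.55%), a share no larger than that of all genes. In the following promoters, given 5′ to 3′ on the gene's strand, capitals mark these motifs and the M-box TCATGTGA, searched on both strands.
Ctsd (chr7:142387778-142388077, minus strand): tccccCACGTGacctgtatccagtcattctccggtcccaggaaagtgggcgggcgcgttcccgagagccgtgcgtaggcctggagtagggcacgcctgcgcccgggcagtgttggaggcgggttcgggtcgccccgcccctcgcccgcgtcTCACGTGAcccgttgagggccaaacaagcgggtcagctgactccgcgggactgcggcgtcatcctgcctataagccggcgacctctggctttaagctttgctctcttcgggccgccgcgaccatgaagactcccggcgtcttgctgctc
Cln3 (chr7:126583187-126583486, minus strand): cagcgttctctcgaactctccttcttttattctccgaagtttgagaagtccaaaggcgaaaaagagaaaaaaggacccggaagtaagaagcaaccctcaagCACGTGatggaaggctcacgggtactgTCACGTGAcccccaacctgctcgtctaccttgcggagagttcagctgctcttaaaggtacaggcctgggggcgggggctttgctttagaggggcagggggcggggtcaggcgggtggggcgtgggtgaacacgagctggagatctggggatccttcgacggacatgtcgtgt
Mcoln1 (chr8:3500269-3500568, plus strand): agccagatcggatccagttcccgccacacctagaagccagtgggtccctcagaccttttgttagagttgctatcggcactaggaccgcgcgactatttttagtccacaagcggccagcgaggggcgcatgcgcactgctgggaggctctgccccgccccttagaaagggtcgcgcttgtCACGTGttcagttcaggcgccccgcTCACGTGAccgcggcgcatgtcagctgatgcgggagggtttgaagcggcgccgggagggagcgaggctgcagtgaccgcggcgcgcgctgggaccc
Atp6v1a (chr16:44139210-44139509, minus strand): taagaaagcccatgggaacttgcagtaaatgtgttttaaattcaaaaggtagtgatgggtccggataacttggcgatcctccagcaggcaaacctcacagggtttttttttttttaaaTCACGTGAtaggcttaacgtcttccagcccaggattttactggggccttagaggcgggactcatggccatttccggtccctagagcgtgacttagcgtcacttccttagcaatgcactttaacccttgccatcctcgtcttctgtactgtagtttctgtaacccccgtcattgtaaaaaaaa
Lamp1 (chr8:13158911-13159210, plus strand): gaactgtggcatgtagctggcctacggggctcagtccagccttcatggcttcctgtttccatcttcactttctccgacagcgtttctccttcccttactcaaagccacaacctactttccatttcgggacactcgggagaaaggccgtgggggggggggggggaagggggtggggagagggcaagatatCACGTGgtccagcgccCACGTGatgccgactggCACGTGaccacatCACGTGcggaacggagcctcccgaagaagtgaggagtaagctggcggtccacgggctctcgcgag
Gla (chrX:134600956-134601255, minus strand): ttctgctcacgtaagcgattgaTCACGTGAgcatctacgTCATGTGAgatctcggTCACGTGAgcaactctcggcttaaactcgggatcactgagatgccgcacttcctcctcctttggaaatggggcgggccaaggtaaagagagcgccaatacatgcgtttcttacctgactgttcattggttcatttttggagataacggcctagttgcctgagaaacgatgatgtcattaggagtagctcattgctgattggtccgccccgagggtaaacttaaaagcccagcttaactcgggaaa
Ctsd, Cln3, Mcoln1 (a lysosomal cation channel, log2 0.94 ± 0.14) and Atp6v1a each hold 1 copy of TCACGTGA, the first 3 beside 1 further core E-box, and Lamp1 holds 4 core E-boxes, and all 5 genes were higher. Gla, which encodes alpha-galactosidase, holds 2 copies of TCACGTGA and 1 M-box but did not pass the test (log2 0.03 ± 0.093, adjusted p = 0.829). Of the other genes of the lysosomal list with a core E-box, Ctsa, Ctsl, Gaa, Arsa and Clcn7 were higher. Ctsf, Naglu and Sgsh did not pass the test, and Glb1 was lower. Such a match is a string in the sequence, and binding was not measured.

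Clock genes were the next group that moved mostly one way. Of 23 genes of the circadian clock 16 were higher and none lower at the threshold, with a median of 0.50. Besides Bhlhe41, its relative Bhlhe40 was higher (log2 1.27 ± 0.16), and the repressors Per2 and Ciart were at 0.397, 0.195 and 0.0990 and 5.65, 6.24 and 6.14 CPM in the controls and at 1.90, 1.35 and 1.07 and 16.6, 17.9 and 16.3 CPM without MTCH2. Per1, Per3, Cry1 and Cry2 were higher too, at log2 fold changes of 0.50, 0.91, 0.48 and 0.73. The activators did not pass the test, with -0.04 for Clock and 0.11 for Arntl. The named Per and Cry repressors thus passed the test and this activator pair did not.

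Targets of the integrated stress response, through which cells answer mitochondrial and amino acid stress, were higher for 22 of 36 genes and lower for 1, with a median of 0.44. Atf5, a factor linked to mitochondrial protein stress, was at 42.4, 41.9 and 46.3 CPM in the controls and at 141, 166 and 159 CPM in the MTCH2-/- clones (log2 1.83 ± 0.076, adjusted p = 1.34e-10). Atf3 rose from 7.44, 6.19 and 7.32 CPM to 32.5, 31.7 and 37.1 CPM, Cebpb from 1.78, 1.07 and 1.24 CPM to 7.89, 8.09 and 8.14 CPM and Ddit4, an inhibitor of mTORC1, from 69.5, 61.8 and 70.1 CPM to 223, 231 and 263 CPM. In these 4 genes the spread between MTCH2-/- clones was small beside the difference. Ddit3 (CHOP), Gdf15 and Trib3 were higher as well, at 1.56, 1.59 and 1.19 on the log2 scale. Atf4, whose output is known to be set by translation, did not pass the test (log2 0.09), nor did the amino acid synthesis genes Asns (-0.14), Phgdh (0.09) and Psat1 (0.11), and Pycr1 was lower (-0.35).

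Of 24 targets of p53, 17 were higher and 2 lower, with a median of 0.63. Mdm2, the ubiquitin ligase of p53, was higher (log2 1.28 ± 0.092), as were Btg2 at 62.9, 55.4 and 57.3 CPM against 156, 135 and 167 CPM, Perp at 30.3, 26.6 and 28.2 CPM against 110.1, 77.5 and 116 CPM and Gadd45a at 12.8, 13.3 and 13.4 CPM against 33.8, 34.5 and 41.3 CPM. The death receptor Fas was near 0 in the controls, at 0.198, 0.0487 and 0 CPM, and at 3.93, 2.42 and 2.68 CPM without MTCH2. Trp53 itself (0.01) and Cdkn1a (0.05), the cell cycle inhibitor p21, did not pass the test. Of 24 apoptosis genes 9 were higher and 3 lower. Of the higher ones, 5 encode BH3-only proteins that set off mitochondrial apoptosis, namely Hrk (5.80, 5.51 and 6.04 against 28.6, 24.3 and 24.2 CPM), Pmaip1 (64.8, 63.2 and 63.9 against 154, 124 and 149 CPM), Bbc3 (log2 0.95 ± 0.11), Bik and Bcl2l11. Pmaip1 and Bbc3 are also counted among the p53 targets, and Bik was not past the threshold without clone 1 or clone 2 (adjusted p = 0.0661 and 0.0614). Bok, a BAX-like protein, kept 51.5% of its level.

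Cell cycle genes were lower for 26 of 42 and higher for 5, with a median of -0.36 that was -0.34 after the adjustment for length and GC content. Ccne1, the cyclin of S-phase entry that ESCs express highly, was at 89.3, 80.8 and 76.6 CPM and 28.6, 44.9 and 39.4 CPM (log2 -1.13 ± 0.16, adjusted p = 0.000104), and Cdk1 at 208, 199.8 and 186 CPM and 114, 133 and 114 CPM. All 5 members that rose restrain the cycle: Rb1 (30.8, 28.8 and 30.4 against 59.6, 48.9 and 62.5 CPM), Rbl2, Cdkn1b, Cdkn2b and Cdkn1c. Antioxidant genes and NRF2 targets were lower for 16 of 30 and higher for 6. Prdx1, a peroxide scavenger, was at 425, 445 and 405 CPM and 221, 272 and 264 CPM, while Hmox1, a heme oxygenase, rose from 84.4, 90.3 and 83.9 CPM to 163, 139.9 and 148 CPM.

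**Figure D3:**
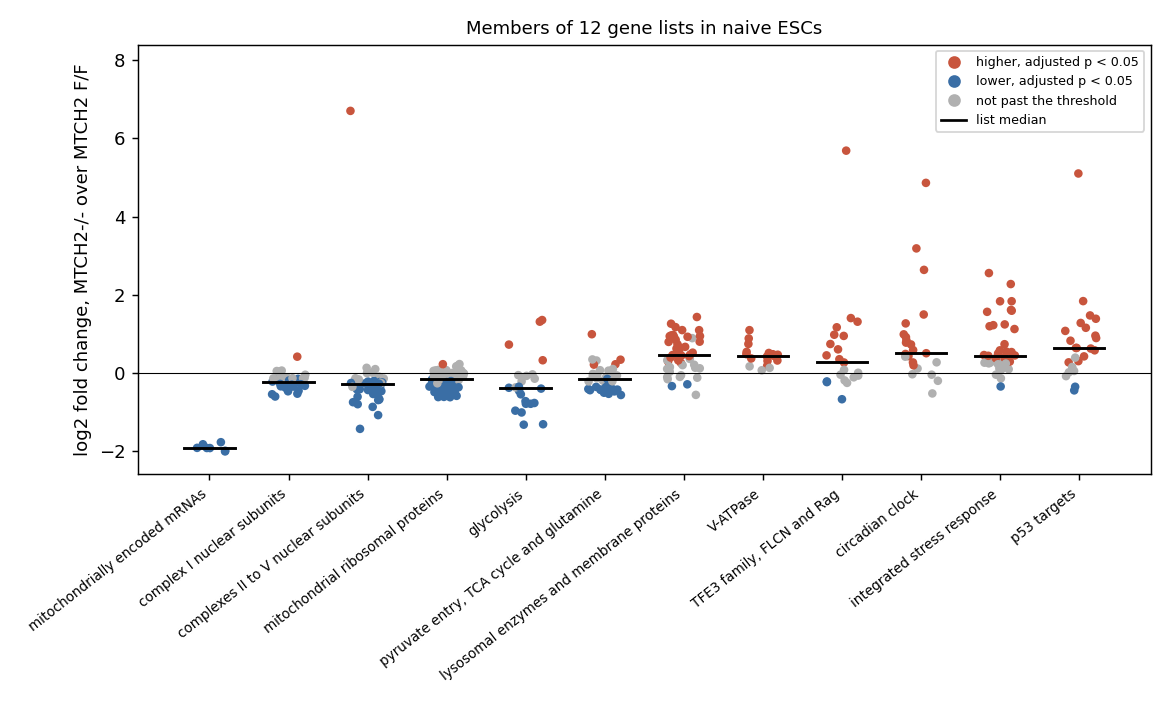
Log2 fold change, MTCH2-/- over MTCH2 F/F ESCs (y axis), of each tested member of 12 gene lists (x axis); 1 point is 1 gene, coloured by its call at an adjusted p under 0.05, and black lines are list medians. The mitochondrially encoded mRNAs lie near -1.92, the nuclear respiratory chain lists slightly below 0, and the lysosomal, V-ATPase, clock, stress response and p53 lists mostly above 0.

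Genes of the naive state differed selectively. Of 22 naive pluripotency genes 9 were lower and none higher at the threshold. Dppa3, a maternal factor also called Stella, was at 12.05, 13.3 and 13.02 CPM in the controls and at 4.45, 4.79 and 2.84 CPM without MTCH2 (log2 -1.65 ± 0.19), and Prdm14, which represses FGF signalling in ESCs, at 86.1, 83.7 and 79.6 CPM and 47.04, 63.8 and 56.4 CPM (log2 -0.58 ± 0.11). Esrrb and Zfp42 did not pass the test, at log2 fold changes of 0.01 and -0.03. Nor did Nanog, at 1013, 979 and 1003 CPM and 620, 820 and 752 CPM. Tfcp2l1 did not pass it either, at 2029, 2155 and 2200 CPM and 1469, 1664 and 1714 CPM. For both genes the groups did not overlap, and the fit of the 6 ESC libraries alone called them lower (edgeR adjusted p = 0.00192 and 0.000799). Klf4 was called lower only in that fit with the clone number as a replicate block (edgeR adjusted p = 0.00949). Of the general factors, Sall4 was at 364, 382 and 388 CPM and 225, 279 and 257 CPM, and Pou5f1 at 995, 1026 and 1011 CPM and 701, 899.7 and 837 CPM. The Pou5f1 difference (log2 -0.31 ± 0.087) was not past the threshold without clone 3 (adjusted p = 0.074). Among targets of Wnt signalling 8 of 17 were lower and 3 higher, led by Sp5 at 9.42, 15.7 and 20.9 CPM against 2.79, 4.97 and 3.53 CPM and T, the mesoderm factor brachyury, at 1.34, 2.53 and 2.08 CPM against 0.243, 0.558 and 0.696 CPM. Targets of FGF and ERK were higher for 10 of 20 and lower for 3. Besides Fos, the immediate early gene Egr1 was at 4.41, 5.996 and 3.37 CPM and 18.4, 18.5 and 27.1 CPM, with no overlap of the groups.

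Some genes that naive ESCs hold at low levels were higher without MTCH2. The filter looked at all 12 libraries, so a gene near 0 in the controls could enter through libraries where it was higher. Such a gene can hardly be called lower, which limits the counts of this paragraph. The same holds for single members of other lists that were near 0 in the controls, such as Cox6a2, Ppargc1a, Fas and Per2. Not tested were 4 of 28 germline genes, 14 of 39 Hox genes and 4 of 18 genes of trophoblast and simple epithelium. Of 24 germline genes 16 were higher and 1 lower, with a median of 0.86, among them Taf7l (2.18, 2.10 and 2.62 against 15.1, 7.58 and 8.08 CPM) and the synaptonemal complex gene Sycp2 (0.644, 0.487 and 0.594 against 5.47, 2.51 and 2.94 CPM), both highest in clone 1. Of 25 tested Hox genes 10 were higher and 1 lower, with Hoxa3 at 0.644, 0.536 and 1.14 CPM in the controls and 5.83, 2.98 and 3.85 CPM without MTCH2. Of 14 genes of trophoblast and simple epithelium 6 were higher and 1 lower. The keratin Krt19 was at 0.694, 0.682 and 0.891 CPM in the controls and at 11.3, 12.1 and 19.5 CPM in the MTCH2-/- clones (log2 4.23 ± 0.35, adjusted p = 1.03e-06). Gata2, a factor of trophoblast and blood, rose from 17.00, 12.6 and 15.8 CPM to 91.9, 55.2 and 50.05 CPM. Of 4 trophoblast markers, 3 could be tested, of which Cdx2 was lower and none higher; the keratin Krt7, not past the threshold, was past it with the clone number as a replicate block (edgeR adjusted p = 0.00327). The summed level of the 4 was 12.8 to 18.3 CPM in the controls and 15.3 to 18.5 CPM without MTCH2.

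Extracellular matrix genes were higher for 17 of 35 and lower for 2. Lamb3, a laminin chain of epithelial basement membranes, was at 1.04, 0.536 and 0.940 CPM and 8.22, 5.53 and 7.98 CPM, with a log2 fold change of 3.10 ± 0.33. Some of these genes are also expressed by the fibroblasts on which the clones were first grown. All 6 tested markers of 9 listed for feeder fibroblasts were higher, such as Col3a1 at 2.18, 2.05 and 3.22 CPM and 9.15, 6.93 and 3.85 CPM. Markers near 0 in the controls, such as Dcn, could enter the test through libraries where they were higher. Lum, Twist2 and Prrx1 were not tested, with 2, 4 and 8 reads in the controls and 9, 2 and 10 without MTCH2. The summed level of the 9 was 12.3 to 14.7 CPM in the controls and 17.6 to 32.4 CPM without MTCH2. Calls for Col1a1, Col1a2, Col3a1 and Postn were lost in at least 1 fit that left out a clone, with adjusted p of up to 0.224 for Col1a2. The part of residual feeder RNA in the matrix genes was not tested. The sum over 6 primitive endoderm markers was 15.2 to 16.5 CPM in the controls and 20.1 to 27.0 CPM without MTCH2, with Gata4, Gata6 and Sox7 higher and Dab2 lower. Without clone 3 the calls of Gata6 (adjusted p = 0.0509), Sox7 (0.0928) and Dab2 (0.0699) were lost.

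**Figure D4:**
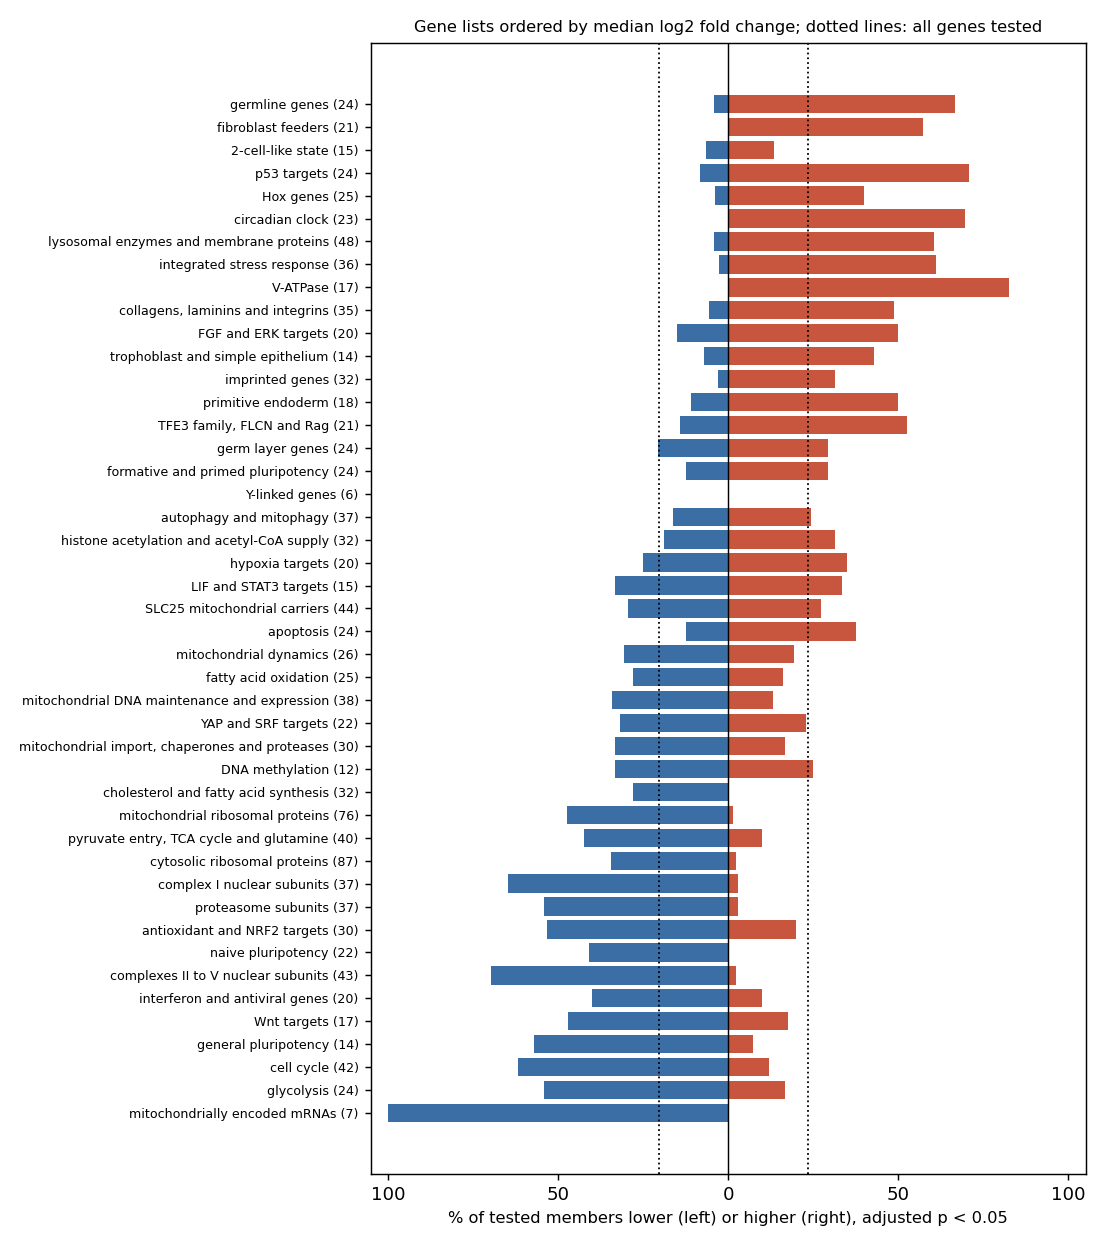
Share of the tested members of each of 45 gene lists that were higher (right, red) or lower (left, blue) in MTCH2-/- ESCs at an adjusted p under 0.05 (x axis, %; number of tested members in parentheses). Dotted lines mark the shares over all genes tested, 23.3% higher and 20.4% lower; the V-ATPase list reaches 82.4% higher and the mitochondrially encoded mRNAs 100% lower.

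The clones were not alike for every gene. The 6 genes of at least 10 CPM with the widest range of clone differences were Rpl38, Tpt1, Trpm1, Obox6, Myo15b and Tjp3, given here as a description. Trpm1, an ion channel, was at 76.5, 79.1 and 88.05 CPM in the controls and at 172, 93.4 and 70.3 CPM without MTCH2, higher only in clones 1 and 2. Tjp3, a tight junction protein, was at 18.1, 22.1 and 23.9 CPM and 42.6, 25.5 and 22.5 CPM, with a rise in clone 1 that clone 3 did not share. Rpl38 was at 27.5, 30.6 and 4.70 CPM and 3.48, 21.6 and 2.94 CPM, and Tpt1 at 45.5, 83.8 and 103 CPM and 148, 127 and 109 CPM. Both have processed pseudogenes, so that their counts are uncertain. Obox6, a homeobox gene of the early embryo, passed the test at 23.6, 13.4 and 12.2 CPM against 9.999, 9.20 and 2.68 CPM (adjusted p = 0.035), but not without clone 1 (0.096) or clone 2 (0.115), nor with DESeq2 (0.0717).

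The genotype difference of naive cells was set against that of the same clones after priming, by the interaction of genotype and culture. It differed between ESCs and EpiLCs at an adjusted p under 0.05 for 6079 genes (35.0%), a count that fell to 3727 without clone 2 and 3658 without clone 3. Log2 fold changes in EpiLCs are those of the group mean CPM with 0.5 added, while those in ESCs and the interaction are fitted. For Gpnmb the log2 fold change was 5.96 in EpiLCs and 5.69 in ESCs, and the interaction did not pass the test (edgeR adjusted p = 0.427). Nor did it for Flcn (1.22 and 1.31, edgeR adjusted p = 0.807), Atf5 (1.82 and 1.83, 0.981) and Acaa2 (-1.42 and -1.60, 0.811). The mitochondrial mRNAs were lower in both states, and for 6 of the 7 less so in EpiLCs, with -1.44 against -2.01 for mt-Nd5 (edgeR adjusted p = 6.68e-05). For the other, mt-Co1, the interaction missed the threshold (edgeR adjusted p = 0.066). The differences of lysosomal Ctsd and Lamp1 were larger in EpiLCs, at 1.61 (edgeR adjusted p = 0.00596) and 1.37 (0.0066). In contrast, several increases were smaller there: Ddit4 at 0.10 (edgeR adjusted p = 5.55e-07), Atf3 at 0.93 (6.67e-06), Cd109 at 1.10 (1.44e-06) and Bhlhe41 at 2.25 (0.00026). The genotype difference had the opposite sign for Prdm14, which was at 1.15, 0.921 and 1.87 CPM in MTCH2 F/F EpiLCs and at 23.9, 26.7 and 25.8 CPM in MTCH2-/- EpiLCs (log2 3.84, edgeR adjusted p = 7.77e-10). Krt18 had log2 fold changes of 2.06 in ESCs and -1.10 in EpiLCs (edgeR adjusted p = 1.27e-08).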

How the data were processed

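Libraries of poly-A RNA from 3 clones (12 in all) were made with a kit that does not mark strand, and no source used here states how the counting treated strand. The authors demultiplexed reads with bcl2fastq 2.16.0.10, mapped them to GRCm38 with TopHat 2.0.10 and an Ensembl annotation, and counted reads per gene with HTSeq 0.6.1p1, per the submitters' processing notes. The deposited counts are whole reads per gene symbol without normalization, and no count was changed. The deposited normalized signal equals the count over a size factor (DESeq2 1.6.3, applied by the authors) and was used only for that check. A separate table holds the authors' own fold changes and p-values and was not used.

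Counts were fitted here with edgeR 4.0.16 in R 4.3.3 (TMM, filterByExpr, robust quasi-likelihood F-test, 4 groups of 3 in 1 model with 8 residual degrees of freedom, no block, Benjamini-Hochberg adjustment over 17369 of 46477 genes). The script was tested on simulated data. CPM are TMM-scaled. Fold changes of low genes depend on edgeR's prior count. DESeq2 1.42.0 was an alternative. Clone numbers pair the libraries: deviations from the group mean correlated at 0.26, 0.244 and 0.218 (across genes) between MTCH2 F/F and MTCH2-/- libraries of the same clone and between -0.197 and -0.0157 otherwise. P-values measure the spread between clones within a group, pooled over the 4 groups of ESCs and EpiLCs. The model leaves out the pairing by clone, so the p-values do not measure the spread of the paired clone differences. Positions come from GENCODE vM21 (16395 genes matched), promoters from RefSeq (11949 genes, 562 by an older symbol).

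Genes named in the text are Mtch2 and Mtch1, the 14 largest 2-fold calls in each direction (at least 10 CPM, groups not overlapping, no predicted genes), the 8 largest CPM differences in each direction, up to 4 leading members of each list, cell type markers, and the 6 genes with the widest clone range; other names were chosen after their values were seen. An item among the largest decreases is not reported here. The members and the 45 lists (1210 of 1297 genes tested) were chosen with earlier results of these data known. Lists are described by counts and medians without a set test.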

Additional observations from a re-analysis of the deposited data

Results flagged for a closer look

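The 37 genes named for their size of change, Mtch2 and Mtch1 among them, were each tested for a genotype difference in EpiLCs that departed from that in ESCs, and 25 did so at an adjusted p under 0.05 (edgeR). The values that follow are the interaction on the log2 scale, EpiLC difference minus ESC difference, as fitted with edgeR's prior count, so they need not equal the difference of the 2 printed fold changes for genes near 0.

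Increases in ESCs that were smaller or absent in EpiLCs gave negative values. They were -2.51 for Bhlhe41, -1.97 for Dusp8, -2.41 for Ppl, -0.94 for Pvrl4, -1.29 for Trim66, -2.01 for Tap1, -3.43 for Kif1a, -1.82 for Cd109 and -1.45 for Cxcl16. Kif1a had the opposite sign in EpiLCs, at 83.6, 76.2 and 68.8 CPM in MTCH2 F/F and 87.1, 40.3 and 50.96 CPM in MTCH2-/- libraries. Increases that were larger in EpiLCs were those of Mtch1 (0.24, where the ESC difference itself did not pass the test), Spp1 (1.04), Ctsd (0.52), Lamp1 (0.42), Ahnak (2.27) and Aqp3 (4.93).

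Among decreases, the mitochondrial mRNAs fell less in EpiLCs, by 0.57 for mt-Nd5, 0.46 for mt-Nd2, 0.39 for mt-Nd1, 0.49 for mt-Nd4, 0.61 for mt-Nd6 and 0.49 for mt-Cytb. Mtch2 itself differed by 0.54, at 122, 122 and 122.98 CPM in MTCH2 F/F EpiLCs and 2.18, 1.52 and 1.93 CPM in MTCH2-/- EpiLCs. Pkm (-0.40) fell further in EpiLCs. Dmgdh (5.69) and Mep1b (3.33) were lower in MTCH2-/- ESCs and higher in MTCH2-/- EpiLCs. Dmgdh was at 0.0545, 0.0969 and 0 CPM in MTCH2 F/F EpiLCs and at 0.534, 0.210 and 1.01 CPM in MTCH2-/- EpiLCs, and Mep1b at 1.31, 0.921 and 2.34 CPM and 5.08, 3.25 and 5.11 CPM.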

How the results depend on the processing

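The counts of genes higher and lower kept within 1.5 times under RLE scaling, no filter, DESeq2, fits of the 6 ESC libraries alone, no robust estimation and library totals without mitochondrial genes. A filter of 5 CPM in 3 libraries, which tested 12251 genes, left 710 genes 2-fold higher and 119 lower. DESeq2 called 1445 and 305. With the clone number as a replicate block, 1596 genes were 2-fold higher and 350 lower, 4484 higher and 4160 lower without a fold minimum, and 7300 differed between ESCs and EpiLCs; the pairing ended the call of Dnmt3l (adjusted p = 0.0718) and added that of Krt7 (0.00327), and changed no other call among the 219 named genes. Leaving out each library or clone gave 1247 to 1755 genes 2-fold higher, 271 to 379 lower, 2921 to 4175 higher and 2372 to 3847 lower without a fold minimum, and 3658 to 6061 that differed between ESCs and EpiLCs. Of 201 named genes past the threshold, 173 stayed past it in every setting that tested them and none reversed; 104 of 4779 values were no longer past it. Of 18 named genes not past it, 9 were past it in 1 setting or more. The median over all genes moved by less than 0.1 on the log2 scale in each setting. The median of the hypoxia list, near 0, changed sign under RLE scaling, without a filter, with DESeq2 and without mitochondrial genes in library totals. That of the 2-cell list did so under the strict filter. Each fit that left out an ESC or control EpiLC library or a clone changed the sign of 1 to 3 medians. Besides hypoxia, these were of the apoptosis, SLC25, LIF and STAT3, histone acetylation and Y-linked lists. The adjustment for length and GC content, chosen after seeing the data, changed no sign among 39 lists with a value for 80% of their genes or more. It moved 13 of these 39 medians by at least the SD of the list's 3 clone medians. By the same measure the strict filter moved 14 of 45 medians, and leaving out 1 ESC library moved 8 to 15. At this depth a gene under 1 CPM rests on few reads.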

Other observations

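Several groups outside those described above held named changes, to be read beside the 23.3% higher and 20.4% lower over all genes tested. Of 20 interferon and antiviral genes 8 were lower and 2 higher, with Ifitm1 at 86.6, 118 and 123.29 CPM in the controls and 35.3, 60.1 and 54.6 CPM without MTCH2 and Oas1a at 13.9, 9.99 and 10.3 CPM and 5.71, 5.58 and 3.21 CPM. Of 20 hypoxia targets 7 were higher (35%) and 5 lower (25%), with a median of 0.004. Among them Ndrg1 rose from 22.01, 19.5 and 17.9 CPM to 58.6, 42.5 and 48.6 CPM. Of 32 imprinted genes 10 were higher and 1 lower, led by Dcn, which is also a feeder marker, and Nap1l5 (0.496, 0.926 and 0.792 against 3.16, 2.23 and 2.19 CPM). Of 32 genes for histone acetylation and the supply of acetyl-CoA 10 were higher (31.2%) and 6 lower (18.8%). Their median was 0.02, so the list as a whole stood near the background. Hdac7, a class IIa deacetylase, kept 51.8% of its level (43.6, 41.1 and 42.4 against 21.6, 23.6 and 20.8 CPM), and Slc25a1, the mitochondrial citrate carrier, 70.5%, a call lost without clone 3 (edgeR adjusted p = 0.0721). The methyltransferase Dnmt3a was at 36.9, 29.1 and 30.7 CPM in the controls and at 78.01, 52.7 and 61.3 CPM without MTCH2.

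Genes of the X chromosome differed slightly by clone. Their median clone difference was -0.11 in clone 1, -0.03 in clone 2 and -0.01 in clone 3, and Xist was at 9.17, 6.82 and 5.89 CPM in the controls and at 16.8, 5.02 and 6.16 CPM in the MTCH2-/- libraries of clones 1, 2 and 3.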
